A study of Mus musculus with 16 samples.

Results

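Spleen was set against lung in maps of open chromatin from mice, with 2 libraries a tissue of the 16 libraries in the series. ATAC-seq, in which the Tn5 transposase cuts and tags DNA that is not wrapped in nucleosomes, had been run on nuclei from pooled tissue of male C57BL/6 mice that were either fed ad libitum or fasted for a day, and the deposited data were peak lists, 1 per tissue and state. The 4 libraries were fed spleen, fasting spleen, fed lung and fasting lung, both tissues of a state came from the same pool of mice, and no library carried a transgene, deletion or drug. The fed and the fasting library therefore served as the 2 libraries of a side, so that the spread within a tissue holds any effect of fasting, and no sample replicates a tissue within a state. A region was a distinct peak interval with a q-value of at most 0.01 (a deposited -log10 q of 2 or more). Regions present in both states of spleen numbered 103348, of which 32976 (31.9%) were overlapped by no deposited lung peak and are called spleen-specific. Regions present in both states of lung numbered 111962, of which 41219 (36.8%) were overlapped by no deposited spleen peak and are called lung-specific. The regions shared by all 4 libraries numbered 52772. These counts follow from how the regions were chosen and carry no test.

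Spleen filters blood and is built mainly from B cells, T cells and macrophages, with red pulp that clears old erythrocytes and, in the mouse, also makes new ones. Lung is built from alveolar and airway epithelium, a dense capillary endothelium and mesenchyme, with resident alveolar macrophages. Lineage transcription factors such as PU.1 and EBF1 in blood cells, NKX2-1 and FOXA2 in lung epithelium and ERG in endothelium bind enhancers and promoters and keep them open, so an open region near a lineage gene is a common mark of that lineage. In bulk tissue, fewer cells of a type and less open chromatin per cell cannot be told apart.

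For 6 of the main cell lineages, the strongest specific region in its own tissue that held no annotated exon within 200 bp at its summit and whose nearest protein-coding start belonged to a marker of that lineage is printed here, because these are the elements that separated the tissues near the genes described next. Regions on a chromosome that was set aside in this choice were not eligible. Each sequence is 200 bases centred on the summit, from the RefSeq GRCm38.p6 assembly. Capitals mark matches, on either strand, to the motifs named in the account of sequence motifs. The first 3 were spleen-specific, near a B cell, a T cell and a macrophage gene, and the other 3 were lung-specific, near an alveolar, an endothelial and a mesenchymal gene.
Ms4a1 (chr19:11271720-11271919, plus strand): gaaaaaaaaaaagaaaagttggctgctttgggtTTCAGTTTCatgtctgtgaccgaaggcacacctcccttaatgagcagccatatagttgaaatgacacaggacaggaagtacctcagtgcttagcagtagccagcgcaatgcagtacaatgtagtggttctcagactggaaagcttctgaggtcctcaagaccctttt
Cd28 (chr1:60754049-60754248, plus strand): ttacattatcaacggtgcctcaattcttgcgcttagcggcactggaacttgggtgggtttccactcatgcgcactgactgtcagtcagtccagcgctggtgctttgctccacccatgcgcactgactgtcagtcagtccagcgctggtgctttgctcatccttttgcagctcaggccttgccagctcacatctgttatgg
Marco (chr1:120501600-120501799, plus strand): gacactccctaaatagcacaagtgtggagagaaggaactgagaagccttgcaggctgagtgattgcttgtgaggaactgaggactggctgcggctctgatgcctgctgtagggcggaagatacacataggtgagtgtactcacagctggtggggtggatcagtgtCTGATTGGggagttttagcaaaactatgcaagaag
Sftpb (chr6:72272166-72272365, plus strand): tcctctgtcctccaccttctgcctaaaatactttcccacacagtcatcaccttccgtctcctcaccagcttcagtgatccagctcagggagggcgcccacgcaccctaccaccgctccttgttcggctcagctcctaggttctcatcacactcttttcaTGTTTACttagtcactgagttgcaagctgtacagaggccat
Car4 (chr11:84968870-84969069, plus strand): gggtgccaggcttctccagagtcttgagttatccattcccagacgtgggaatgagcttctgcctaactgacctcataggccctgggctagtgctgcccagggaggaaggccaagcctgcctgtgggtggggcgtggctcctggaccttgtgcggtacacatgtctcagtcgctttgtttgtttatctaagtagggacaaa
Pdgfra (chr5:75210163-75210362, plus strand): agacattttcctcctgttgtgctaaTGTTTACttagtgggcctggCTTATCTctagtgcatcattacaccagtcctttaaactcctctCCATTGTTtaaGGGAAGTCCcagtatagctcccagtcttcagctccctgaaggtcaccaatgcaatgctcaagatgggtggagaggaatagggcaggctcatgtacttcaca

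The Ms4a1 element, in an intron of an annotated gene 5579 bp upstream of the start of Ms4a1 (which encodes CD20), ranked at the percentiles 84.4 (fed spleen) and 84.5 (fasting spleen), and no peak of any of the 6 other tissues overlapped it. The rank of a peak is its percentile by p-value within its own list, from 0 to 100, so that libraries of unlike depth can be set side by side. A match to the interferon-stimulated response element that IRF factors bind lay at bases 34 to 42 of the Ms4a1 element. The Cd28 element, 7747 bp downstream of the start of this T cell co-stimulatory receptor gene, had ranks of 70.8 and 60.3 and held none of the motif letters searched. The Marco element, 3056 bp downstream of the start, in an intron, of the gene for this scavenger receptor of marginal zone macrophages, had ranks of 81.5 and 79.0. A spleen-specific region near Csf1r had a mean rank over the states of 81.1 against 80.2 for Marco. It was not eligible, because Csf1r lies on the chromosome set aside.

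In lung, the Sftpb element lay 32344 bp upstream of the start of the surfactant protein B gene and ranked 89.0 in the fed and 93.4 in the fasting lung library, with a FOX match at bases 160 to 166. The Car4 element, 4623 bp downstream of the start of the carbonic anhydrase gene of capillary endothelium, had ranks of 89.3 and 93.1, and a peak overlapped it in all 6 other tissues. The Pdgfra element, 48429 bp from the start of this fibroblast receptor gene, had ranks of 87.2 and 81.3, held matches to FOX, GATA, SOX and NF-kB letters, and was overlapped by a peak in 4 other tissues. The B cell and macrophage elements were thus absent from the other tissues' lists, the T cell element was overlapped in 1 other tissue, and the alveolar element in 3.

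The spleen and lung lists differed in depth. The background estimate that the peak caller used at the peaks, in tags, was 3.20 in fed and 3.35 in fasting spleen and 8.92 and 7.14 in fed and fasting lung. The deposited lists held 299281 to 299473 rows each. In fed spleen 89.7% of the rows reached the q threshold, and in the other 3 libraries every row did, so there the length of the list ended the set. The sets held 202948 and 225899 regions in spleen and 160424 and 157435 in lung, with a median width of 135 and 133 bp in spleen and of 252 and 241 bp in lung. In fed spleen the last region inside the threshold had a -log10 q of 2.0007 and the first outside it 1.99985. The Jaccard index (shared over joint base pairs) was 0.639 between the lung states, 0.444 between the spleen states and 0.290 to 0.337 between a spleen and a lung library. With all libraries thinned to the background of the shallowest, the specific regions numbered 19444 in spleen and 17926 in lung, and with only q-values under 1e-06 they numbered 4538 and 24334. Which tissue held more specific regions thus depended on how the lists were matched.

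To ask how promoters differed, each protein-coding gene was given, in each library, the highest rank of any peak summit within 3000 bp of one of its annotated starts, and 0 where there was none. Of 21911 genes, 17155 had a promoter peak in at least 2 of the 4 libraries and were tested with limma on the ranks. With Benjamini-Hochberg adjustment at 0.05, 1276 promoters ranked higher in spleen (7.44%) and 2225 ranked higher in lung (13%). With state as a block, 1943 and 3285 were called. The median spleen-minus-lung difference over the tested genes was -0.400 percentile points. Of the called promoters, 285 of those higher in spleen and 170 of those higher in lung had peaks in 1 of the tissues alone. A gene that entered the test through 1 tissue alone had to differ, so its call supports nothing, no p is printed for it, and such calls are counted apart below. A gene with a peak in only 1 library of the lower tissue also needed the other tissue to enter. Its call is given without a p. By order alone, both spleen libraries ranked above both lung libraries at 4915 promoters (22.4% of all 21911 genes). Both lung libraries ranked above both spleen libraries at 7331 (33.5%). All these promoters were among the 17155 tested, so both shares are higher over the tested genes than over all genes. With 1 library left out, its tissue had 1 library that was assumed to vary like the other tissue, and a gene had to have a peak in at least 2 of the 3 libraries left, so fewer genes with a peak in that tissue alone were tested. The median difference between the states over tested promoters was 1.43 points in spleen and 0.808 in lung. Without fed lung 641 and 7 promoters were called higher in spleen and in lung, and without fasting lung limma called 0 in each direction, with 1901 and 2111 at an unadjusted p under 0.05. Without fed spleen the calls numbered 708 and 3756, and without fasting spleen 690 and 3575.

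The promoters of lung alveolar epithelium separated the tissues most widely among the lists. Of 12 listed genes, 7 were called higher in lung, of which 3 had a peak in both tissues and 4 in lung alone, and 2 were called higher in spleen. Both lung libraries ranked above both spleen libraries at 8, and the median spleen-minus-lung difference of the list was -71.0 points. Over all tested promoters 13% were called higher in lung and 7.44% higher in spleen, and 33.5% of all genes were ordered with lung above. The surfactant protein genes Sftpd, Sftpa1 and Sftpb, whose products coat the air-liquid surface, were among the 7. Sftpd had no promoter peak in either spleen library and ranked 81.7 in the fed and 84.7 in the fasting lung library (difference -83.2), and it had none in the 6 other tissues. Sftpa1 had no peak in fed spleen, a rank of 9.65 in fasting spleen and ranks of 83.0 and 90.2 in lung (difference -81.8, SE 9.74). Sftpb ranked 16.5 and 33.7 in spleen and 85.7 and 89.4 in lung (difference -62.5, SE 9.84, limma with Benjamini-Hochberg, adjusted p = 0.0281). In all 3 genes both lung values stood far above both spleen values. 

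Nkx2-1, which encodes the homeobox factor that specifies lung epithelium, ranked 4.37 and 9.65 in spleen and 84.2 and 88.9 in lung (difference -79.6, SE 9.17, limma adjusted p = 0.0278). The promoters of Ager, Aqp5 and Cldn18, which encode a receptor, a water channel and a claudin of alveolar type 1 cells or alveolar epithelium at large, had no peak in either spleen library. Their lung ranks were 75.8 and 85.7 for Ager, 84.1 and 86.8 for Aqp5 and 79.1 and 82.7 for Cldn18. Lamp3, a lysosomal membrane gene of type 2 cells, also had no spleen peak, with lung ranks of 35.2 and 60.3, and was not called. Without fasting spleen and without fed spleen limma still called 7 promoters of the list higher in lung, and without either lung library it called 0 of the 7 genes that could be tested.

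Sftpc, which encodes surfactant protein C and marks alveolar type 2 cells, did not separate the tissues by this measure. Its promoter ranked 86.9 and 85.6 in spleen and 84.6 and 82.2 in lung (difference 2.82, SE 2.68, limma adjusted p = 0.457), and its mean rank in the 12 libraries of the other tissues was 88.6. When only summits whose nearest protein-coding start was that of Sftpc were kept, the ranks became 26.0 in fed spleen, 0 in fasting spleen, 67.9 in fed lung and 70.6 in fasting lung. A lung-specific region lay 26 bp from the Sftpc start, on chromosome 14 from 70523910 to 70524613, with these same lung ranks and no peak in any other tissue. The strong summit in the window that all tissues shared was therefore nearer the start of another gene, and the element at the start of Sftpc itself was found in lung alone. Abca3, the surfactant lipid transporter gene, ranked 99.5 to 99.7 in all 4 libraries. Napsa (97.7 and 98.3 against 91.3 and 91.6) and Hopx (98.4 and 98.7 against 94.2 and 94.0), both used as alveolar markers, were called higher in spleen.

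Airway epithelium moved in the same direction by smaller steps. Of 10 listed genes, 4 were called higher in lung and 0 higher in spleen, lung ranked above spleen without overlap at 8, and the median difference was -21.2 points. The shares over all tested promoters were 13% and 7.44%, and 33.5% of all genes were so ordered. Foxa2, a pioneer factor of endodermal epithelium, ranked 9.86 and 30.9 in spleen and 83.2 and 90.3 in lung (difference -66.4, SE 10.9, limma adjusted p = 0.0286). Cyp2f2, the cytochrome P450 gene of club cells, ranked 45.9 and 47.7 against 90.1 and 92.9 (difference -44.7, SE 6.22, adjusted p = 0.0278). Cdh1, which encodes E-cadherin, and Tppp3, a gene of ciliated cells, were the other 2 called. The mean rank in the 12 libraries of the other tissues was 38.8 for Foxa2, 66.9 for Cyp2f2, 49.4 for Cdh1 and 97.3 for Tppp3. The club cell secretoglobin gene Scgb1a1 ranked 21.5 and 0 in spleen and 46.2 and 60.8 in lung and did not pass (adjusted p = 0.0713). Foxj1 and Elf3, a ciliary and an epithelial factor, overlapped between tissues.

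**Figure D1:**
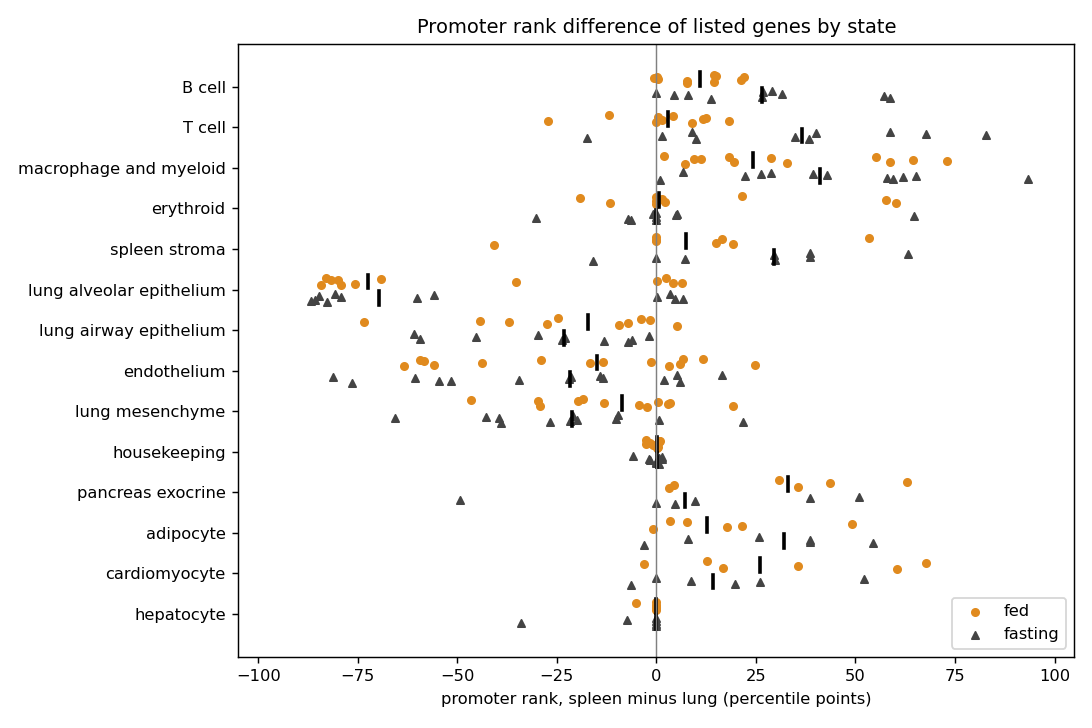
Spleen-minus-lung difference of the promoter rank, in percentile points, for each gene of 14 marker lists. Circles are the fed pair of libraries, triangles the fasting pair and black bars the list medians. The alveolar medians are -72.5 in the fed and -69.7 in the fasting pair, the macrophage medians are positive in both states, and the housekeeping points lie close to 0.

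Of 32 immune promoters 9 were called higher in spleen and 1 higher in lung, beside 7.44% and 13% of all tested promoters. Both spleen libraries ranked above both lung libraries at 27, beside 22.4% of all genes. In the macrophage and myeloid list the spleen libraries stood above the lung libraries at 12 of 12 genes, with a median difference of 33.2 points. Of these 12 genes 5 were called higher in spleen, 3 with a peak in both tissues and 2 with a peak in spleen alone, and 0 were called higher in lung. Marco, the scavenger receptor of marginal zone macrophages, ranked 72.9 in fed and 62.0 in fasting spleen with no promoter peak in either lung library (difference 67.5). Mrc1, the mannose receptor gene, ranked 69.9 and 65.3 in spleen and 5.39 and 0 in lung (difference 64.9, SE 9.80). Spic, the factor of iron-recycling red pulp macrophages, ranked 58.8 and 59.4 in spleen and had no lung peak (difference 59.1). These 3 promoters were at or near 0 in lung. Adgre1 (F4/80) and Csf1r (the CSF1 receptor) were also called, at differences of 47.2 and 23.6. Siglecf, a surface gene of alveolar macrophages, ranked 89.9 and 80.0 in spleen and 70.5 and 22.1 in lung and did not pass (limma adjusted p = 0.156). Lyz2, the lysozyme gene of myeloid cells, differed least, with ranks of 64.9 and 60.4 in spleen and 57.9 and 59.5 in lung (SE of the difference 7.83, adjusted p = 0.720). The count of 5 calls fell to 0 without fed spleen, to 1 without fasting spleen and to 0 without fasting lung, and it was 4 without fed lung.

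Of 10 B cell genes, 3 were called higher in spleen and 0 higher in lung, beside 7.44% and 13% of all tested promoters. Spleen stood above lung without overlap at 8, beside 22.4% of all genes. The median difference was 19.0 points, which was 11.03 in the fed and 26.6 in the fasting pair of libraries. Ms4a1 ranked 92.8 and 95.1 in spleen and 70.8 and 63.5 in lung (difference 26.8, SE 4.19, limma adjusted p = 0.0281), and no library of the 6 other tissues had a peak at its promoter. Cd79a, a subunit of the B cell receptor, ranked 86.8 and 90.8 against 71.8 and 64.1 (difference 20.9, SE 4.77, adjusted p = 0.0440). B cell promoters were thus open in lung too, at lower ranks, and the fasting lung library was the lowest of the 4 at 9 of the 10 genes. Pax5 and Ebf1, the factors that commit cells to the B lineage, ranked from 85.8 to 93.8 in every library. Their mean ranks in the 12 libraries of the other tissues were 80.5 and 79.7, so these peaks were not particular to spleen and lung. Blk, Cr2 and Fcer2a had large differences of 39.2, 17.1 and 36.6 points that did not pass.

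T cell promoters gave 1 call in each direction among 10 genes, with spleen above lung without overlap at 7 and a median difference of 19.7 points. These calls are close to the shares over all tested promoters, 7.44% higher in spleen and 13% higher in lung. Of all genes 22.4% were ordered with spleen above. Cd28 ranked 96.0 and 94.4 in spleen and 87.2 and 84.6 in lung (difference 9.33, SE 1.75, limma adjusted p = 0.0327). Tcf7, the TCF1 gene of naive and memory T cells, went the other way, at 67.8 and 77.0 in spleen and 95.1 and 94.5 in lung. Its difference was -22.4 (SE 4.06, limma adjusted p = 0.0315). The mean rank in the 12 libraries of the other tissues was 56.8 for Cd28 and 89.8 for Tcf7, so the Tcf7 promoter was open elsewhere too. Fasting lung ranked lowest of the 4 libraries at 9 of the 10 genes here as well, and the list's median difference was 2.80 in the fed and 36.6 in the fasting pair of libraries. The coreceptor genes Cd4 and Cd8a had promoter peaks in fed lung, at 60.3 and 66.8, and none in fasting lung, so their differences of 40.2 and 47.3 did not pass (adjusted p = 0.212 and 0.183). With state as a block limma called 3 T cell, 6 B cell and 7 macrophage promoters higher in spleen and 1 T cell promoter higher in lung. Of all 17155 tested promoters that fit called 1943 higher in spleen and 3285 higher in lung.

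Endothelial promoters were split. Of 14 genes, 4 were called higher in lung and 2 higher in spleen, lung stood above spleen without overlap at 9 and spleen above lung at 4, and the median difference was -20.4 points. Over all tested promoters 13% and 7.44% were called, and over all genes 33.5% and 22.4% were so ordered. Car4, of lung capillary endothelium, ranked 4.37 and 0 in spleen and 67.9 and 76.5 in lung (difference -70.0, SE 9.93). Tek, the angiopoietin receptor gene, ranked 21.5 and 0 against 81.0 and 81.1 (difference -70.3, SE 11.3). Robo4 ranked 27.7 and 31.8 against 83.6 and 86.5 (difference -55.2, SE 8.18, limma adjusted p = 0.0278). Cldn5, the claudin of endothelial tight junctions, was the other promoter called higher in lung, at -39.1 points. Cdh5, which encodes VE-cadherin, and Calcrl, the receptor gene for adrenomedullin, were called higher in spleen, at 8.43 and 4.57 points. Both ranked above 85 in every library. The mean rank in the 12 libraries of the other tissues was 72.6 for Car4, 58.7 for Tek, 70.8 for Robo4 and 70.1 for Cldn5. It was 67.7 for Cdh5 and 80.4 for Calcrl, so none of these promoters was particular to lung or to spleen. Without fed spleen the calls were 0 in spleen and 7 in lung, and without either lung library 0 were called higher in lung.

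Of 12 lung mesenchyme genes, 1 was called higher in lung and 1 higher in spleen, beside 13% and 7.44% of all tested promoters, and the median difference was -18.7 points. Npnt, which encodes the matrix protein nephronectin, ranked 64.6 and 67.4 in spleen and 93.8 and 94.1 in lung (difference -28.0, SE 3.68, limma adjusted p = 0.0278). Acta2, the smooth muscle actin gene, ranked 95.4 and 91.3 in spleen and 76.1 and 69.4 in lung (difference 20.6, SE 3.81, adjusted p = 0.0322). The fibroblast and lung bud factors Tbx5 and Foxf1 missed the threshold, at -36.4 and -29.5 points (adjusted p = 0.0523 and 0.0525). Without fed spleen 6 mesenchymal promoters were called higher in lung and without fasting spleen 3.

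The erythroid and spleen stroma lists each gave 1 call, beside 7.44% of all tested promoters called higher in spleen. Of 10 erythroid genes 1 was called, Slc4a1, the band 3 anion exchanger of red cells, with ranks of 57.8 and 64.6 in spleen and no lung peak (difference 61.2). The haem synthesis gene Alas2 and the Rh-associated glycoprotein gene Rhag had no promoter peak in any of the 4 libraries, Gata1 had one in fed spleen alone, at a rank of 21.5, and the median difference of the list was 0. Of 8 spleen stroma genes 1 was called, Nkx2-5, a factor of the splenic anlage and the heart (53.3 and 63.3 in spleen, no lung peak, difference 58.3), and the median difference of the list was 19.3 points. Both calls were of genes with a peak in spleen alone. Tlx1, which the spleen needs to form, and the chemokine gene Cxcl13 each had a promoter peak in fasting spleen alone, at 38.6. The 10 housekeeping promoters ranked from 91.8 upwards in every library, with a median difference of 0.0582, and Gapdh (1.17 points higher in spleen) and Polr2a (2.16 points higher in lung) were called at these small sizes.

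Markers of neighbouring and other organs were read in the same way. Over all genes 22.4% were ordered with spleen above, and 7.44% of tested promoters were called higher in spleen. None of 6 exocrine pancreas promoters was called, but both spleen libraries ranked above both lung libraries at 4 of them. Cpa1, the carboxypeptidase gene of acinar cells, ranked 62.9 and 38.6 in spleen and had no lung peak (difference 50.7), and Ptf1a ranked 30.7 and 50.8, also without a lung peak. The protease gene Prss2 had a promoter peak in fed spleen alone, at 35.5. None of 6 adipocyte promoters was called either, with spleen above at 5 and a median difference of 22.3 points. Of 6 cardiomyocyte promoters, Nppa and Ryr2 were called higher in spleen, and Nppa had no lung peak. Of 6 hepatocyte genes 4, Alb, Ttr, Fgb and Serpina1a, had no promoter peak in any of the 4 libraries. What these cell types contributed to the spleen-specific regions was not tested.

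To compare elements away from promoters, each specific region was assigned to the protein-coding gene with the nearest start, up to 100000 bp away. Over all 21911 genes, 45% received at least 1 spleen-specific and 45.6% at least 1 lung-specific region, with a mean of 1.32 and 1.67 regions per gene. The B cell genes received 44 spleen-specific and 3 lung-specific regions, and the macrophage and myeloid genes 29 and 6. The T cell genes received 19 and 14, a mean of 1.9 and 1.4 per gene, and Cd28 received 7 of each. Ebf1, with 14 spleen-specific and 0 lung-specific regions, and Pax5, with 11 and 0, led the B cell list, although their promoters did not differ by the test. Cr2, the complement receptor gene of follicular B cells, received 8 and 0, and Marco 9 and 1.

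The epithelial, endothelial and mesenchymal genes received mostly lung-specific regions. Alveolar genes received 4 spleen-specific and 72 lung-specific regions, and all 12 had more lung-specific ones. Airway genes received 10 and 76, led by Foxa2 with 0 and 22 and Foxa1 with 1 and 15. Endothelial genes received 33 and 101 and mesenchymal genes 16 and 69. The Sftpb gene received 1 and 11, Sftpd 0 and 9, and Cldn18 0 and 8, and even Abca3 and Hopx, whose promoters were not higher in lung, received 6 lung-specific regions each. Erg, the endothelial ETS factor, was the exception among endothelial genes, with 15 spleen-specific and 10 lung-specific regions. Its promoter ranked 58.8 and 59.4 in spleen and 72.1 and 72.8 in lung. Erythroid genes received 12 of each kind, and housekeeping genes 22 and 24, of which Ywhaz alone received 16 and 16.

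**Figure D2:**
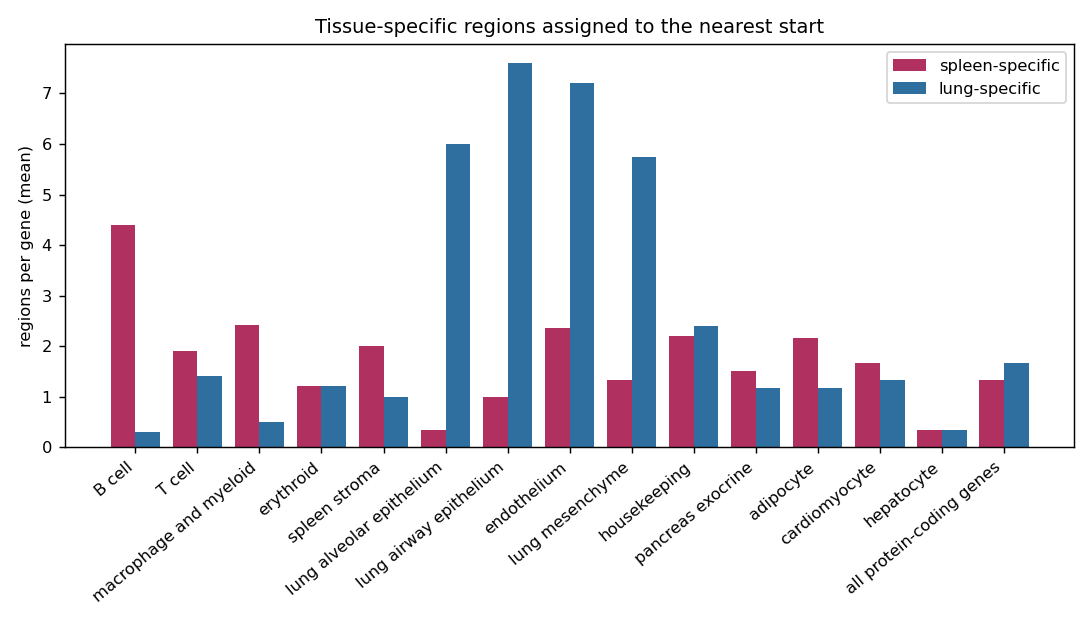
Mean number of spleen-specific and lung-specific regions per gene, in regions, for 14 marker lists and for all protein-coding genes, with each region assigned to the nearest start within 100000 bp. B cell genes average 4.4 spleen-specific regions, and the 4 lung lists average from 5.75 to 7.60 lung-specific ones, against 1.32 and 1.67 over all genes.

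The regions near 2 genes show the pattern element by element. These are the B cell gene with most spleen-specific and an alveolar gene with most lung-specific regions. Within 60000 bp of the Ebf1 start the spleen sets held 30 and 33 regions and the lung sets 24 and 20, of which 5 in each spleen library were spleen-specific and 3 in each lung library lung-specific. Of the spleen regions there, 12 in each library were overlapped by a region in all 3 other libraries. Within the same distance of the Nkx2-1 start the spleen sets held 8 and 5 regions and the lung sets 22 and 23, of which 13 in each lung library were lung-specific. The highest spleen rank there was 62.9 in fed and 26.1 in fasting spleen, against 84.2 and 88.9 in lung. The 13 lung-specific regions assigned to Nkx2-1 had mean ranks from 5.90 to 72.2, lay 188 to 94445 bp from a start, and 8 of them were overlapped by no peak of another tissue. The 14 spleen-specific regions assigned to Ebf1 had mean ranks from 21.3 to 80.7, and 7 of them were found in no other tissue.

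**Figure D3:**
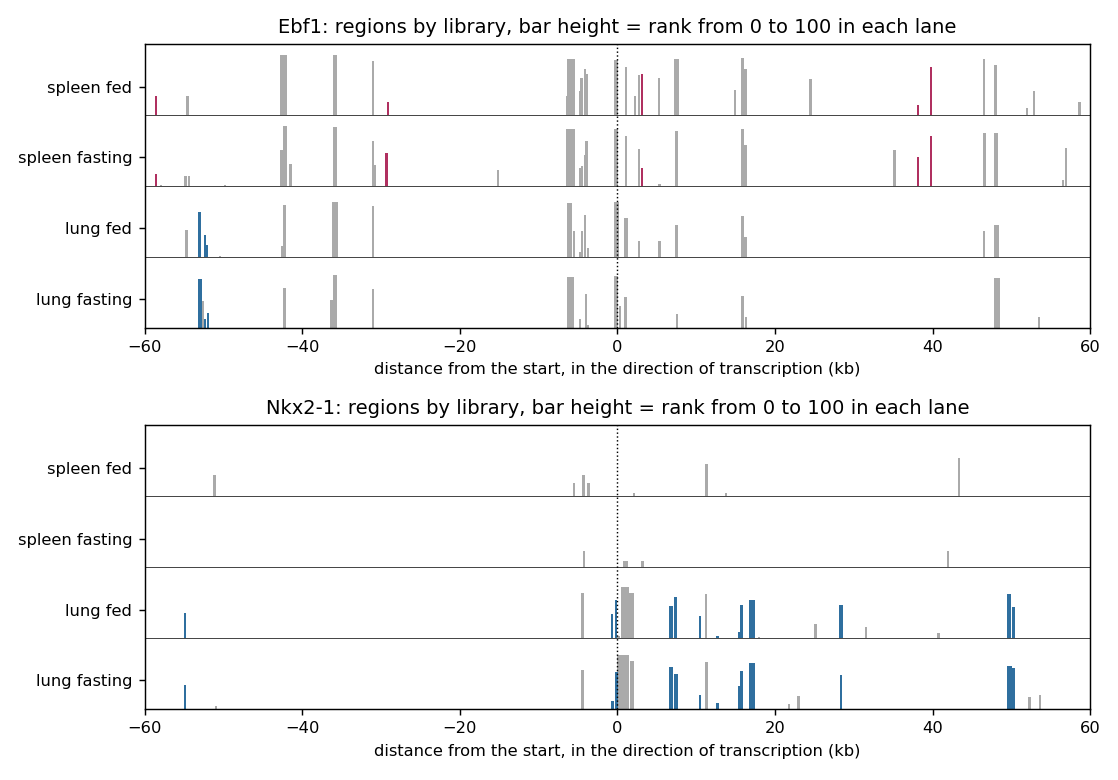
Regions of the 4 libraries by distance in kb from the start of Ebf1 and of Nkx2-1, where 0 is the start and positive values lie downstream. Bar height is the rank of the region from 0 to 100 within each lane, coloured bars are tissue-specific and grey bars are not. Around Nkx2-1 the lung lanes hold 22 and 23 regions and the spleen lanes 8 and 5, and around Ebf1 the spleen lanes hold 30 and 33 regions, 12 in each with a counterpart in all 3 other lanes.

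The 6 other tissues, which played no part in choosing the regions, were used to ask whether specific regions were open elsewhere. Lung-specific regions were overlapped by peaks of another tissue more often than spleen-specific ones in 6 of 6 tissues. Averaged over the 2 states, liver held 16.4% of the spleen-specific and 29.8% of the lung-specific regions, the closest pair of shares. Heart held 14.7% and 34.6%, muscle 11.3% and 34.6%, kidney 10.1% and 34.9%, and brown adipose 9.45% and 34.4%. White adipose held the highest share of the lung-specific regions, 36.4%. The mean difference was 22.0 points (SD 4.68, n = 6 tissues), with p = 0.0312 by a two-sided exact permutation of the signs, the smallest that 6 tissues can give. The 6 tissues come from the same mice as each other and as spleen and lung. At equal depth the difference was 27.3 points and among the 50000 strongest regions of each library 35.8 points. Regions shared by the 4 libraries were overlapped in 70.6% to 79.2% by tissue. Of the spleen-specific regions 14817 (44.9%) were found in no other tissue and 289 (0.876%) in all 6, whereas of the lung-specific regions 8992 (21.8%) were found in none and 4059 (9.85%) in all 6. 

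**Figure D4:**
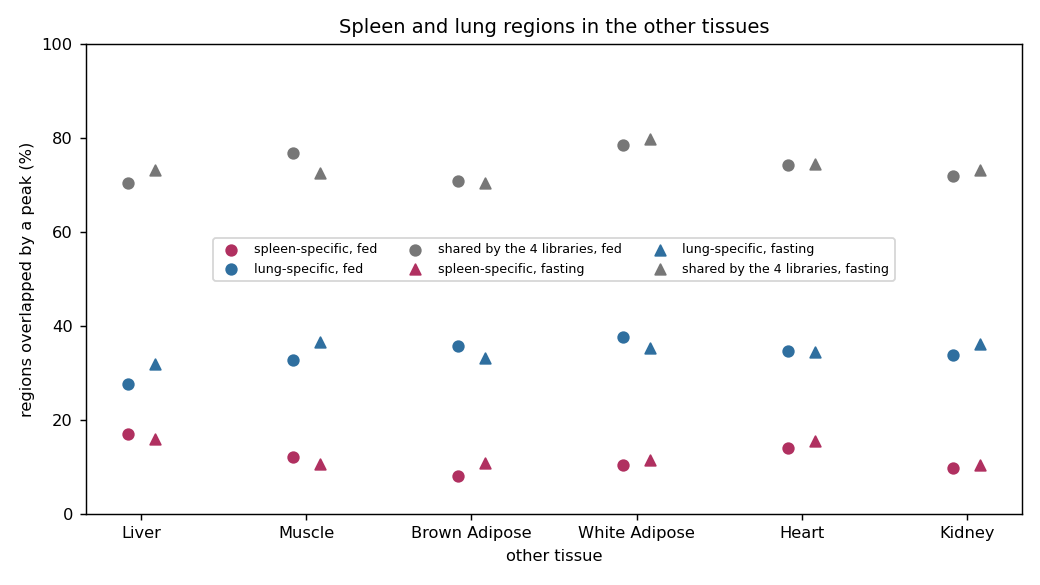
Share of spleen-specific, lung-specific and shared regions, in percent, overlapped by a peak of each of the 6 other tissues. Circles are the fed and triangles the fasting library of that tissue. The lung-specific points lie above the spleen-specific points in every tissue, and the shared regions lie highest, between 70.6% and 79.2% on average over the states.

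Within lung, the lineages differed in where else their elements were found. Of the 101 lung-specific regions near endothelial genes, 67 (66.3%) were overlapped by a heart peak in either state, 51 (50.5%) by a muscle peak and 19 (18.8%) by none of the 6 tissues. Of the 72 near alveolar genes, 34 (47.2%) were found in no other tissue and 13 (18.1%) in heart. Of the 76 near airway genes, 38 were found in liver and 7 (9.21%) in muscle. Foxa1 and Foxa2, which liver also uses, supplied 37 of these 76 regions. Over all lung-specific regions the shares were 43.6% in heart, 41.0% in muscle, 37.8% in liver and 21.8% in none, so the endothelial regions stood above them in heart and muscle and the alveolar ones below. Of the 69 mesenchymal regions, 22 (31.9%) were found in none. Other lists had heart shares as high, at 10 of 14 regions near T cell genes (71.4%) and 5 of 7 near adipocyte genes (71.4%). A high heart share was thus not particular to the endothelial list.

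Within spleen, 26 of the 44 spleen-specific regions near B cell genes (59.1%), 13 of 19 near T cell genes (68.4%) and 15 of 29 near macrophage and myeloid genes (51.7%) were found in no other tissue, beside 44.9% over all spleen-specific regions. Other lists had shares as high, at 14 of 22 near housekeeping genes (63.6%), 10 of 16 near lung mesenchyme genes (62.5%) and 7 of 9 near pancreas genes (77.8%), so a high share was not particular to the immune lists. Liver was the tissue that most often shared the macrophage regions, at 9 of 29 (31.0%), and white adipose followed at 5 (17.2%). Heart overlapped 9 of the 44 B cell regions (20.5%) and kidney 1 (2.27%). The 33 spleen-specific regions near endothelial genes were less widely open than the lung-specific ones near the same list, with 20 (60.6%) in no other tissue and 0 in 4 or more, against 44 of 101 lung-specific regions in 4 or more. The members of a list lie near few genes and share their libraries, and these shares are descriptions.

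Specific regions were weaker and lay farther from starts than shared ones. The median of the mean rank over the states was 44.9 for spleen-specific and 43.8 for lung-specific regions, and 82.2 for the spleen regions that were in the lung set in both states. Only 93 spleen-specific and 203 lung-specific regions had a mean rank over 90. The summit lay within 3000 bp of a start of any annotated gene in 23.2% of spleen-specific regions (95% exact binomial interval 22.7% to 23.6%, counting error only) and in 26.1% of lung-specific regions (25.7% to 26.5%), against 48.6% of the shared spleen regions. Introns held 42.3% of spleen-specific and 44.4% of lung-specific summits. Over whole sets, promoter regions made up 31.3% and 30.9% in spleen and 34.3% and 34.6% in lung, a difference of -3.35 points (pooled SD 0.279, n = 2 libraries a tissue, exact permutation test, two-sided p = 0.333, the smallest that 2 against 2 can give). This difference turned to 4.97 points with q-values under 1e-06 was -0.275 among the 50000 strongest regions and was -4.94 at equal depth.

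Sequence motifs were counted within 100 bp of each summit on both strands as exact letters. The letters were GAGGAAGT for PU.1 and other ETS factors, TCCCNNGGG for EBF, TGTGGTTT for RUNX, AGGTGTGA for T-box factors, GAAACTGAA for the IRF response element, GGGAANTCC for NF-kB, AGATAAG for factors of the GATA family, CTTTGAT for TCF/LEF, TGTTTAC for FOX, GGAATGT for TEAD, TGANTCA for AP-1, TTGNGCAA for C/EBP, CCATTGTT for SOX, CTTGGCA for NFI factors, CACTCAAG for NKX2-1, AACCGGTT for GRHL, GCGCATGCG for NRF1 and CCAATCAG for NFY. No motif holds another in full, although neighbouring matches may share bases. A match is a description and not a bound site.

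The PU.1 and ETS letters, which PU.1 reads in myeloid and B cells, were in 5.01% of spleen-specific regions (95% exact binomial interval 4.78% to 5.25%), 2.11% of lung-specific regions (1.98% to 2.26%) and 5.14% of shared regions. Among the 5000 strongest regions of each kind these shares were 10.1%, 2.32% and 1.70%. EBF letters were in 4.63% of spleen-specific and 3.39% of lung-specific regions, and T-box letters in 1.58% and 0.946%. RUNX letters differed little, at 2.09% and 1.83%, and parted among the 5000 strongest, at 3.68% and 2.08%. The IRF response element, which the Ms4a1 element above holds, was in 0.558% and 0.556%.

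The letters of FOX, TEAD, AP-1, C/EBP, NFI and SOX factors were in a larger share of lung-specific than of spleen-specific regions. FOX letters, read by FOXA, FOXF and FOXJ factors and present in the Sftpb and Pdgfra elements, were in 6.86% of lung-specific (95% exact binomial interval 6.61% to 7.10%), 1.81% of spleen-specific and 2.71% of shared regions. TEAD letters were in 6.35%, 1.59% and 1.97%. AP-1 letters were in 10.2%, 6.27% and 6.52%, C/EBP letters in 3.91%, 1.38% and 2.19%, and NFI letters in 7.62%, 4.28% and 4.21%. SOX letters were in 1.15% of lung-specific and 0.494% of spleen-specific regions. The NKX2-1 letters differed by less, at 1.29% and 1.02%, although the promoter of Nkx2-1 itself was called higher in lung. GATA letters were in 3.10% of lung-specific (1279 of 41219) and in 658 of 32976 spleen-specific regions, so the motif of the erythroid factor GATA1, which other GATA factors share, was not richer in spleen. NRF1 and NFY letters, typical of promoters of widely expressed genes, were in 0.832% and 1.61% of shared regions and at most 0.711% of specific ones. The GC content within 100 bp of the summits was 52.0% in spleen-specific, 49.4% in lung-specific and 55.5% in shared regions, so AT-rich and GC-rich letters were not equally likely by composition. What composition contributed to the motif shares was not tested.

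**Figure D5:**
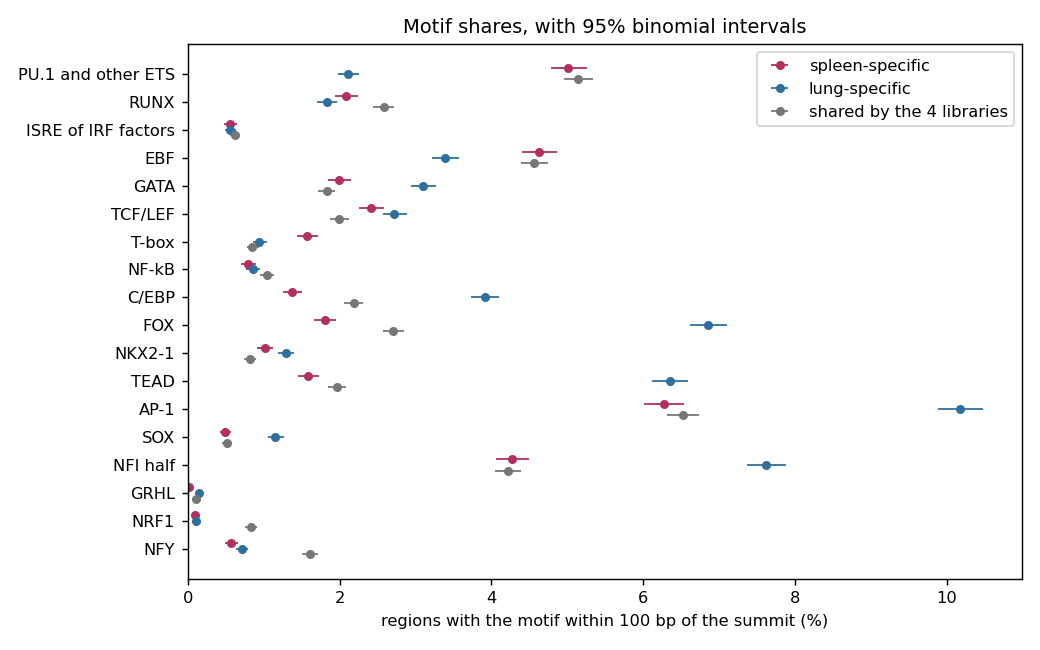
Share of regions, in percent, with each motif within 100 bp of the summit, for spleen-specific, lung-specific and shared regions, with 95% exact binomial intervals that cover counting error. FOX, TEAD, AP-1 and NFI points of the lung-specific regions lie to the right of the spleen-specific points, and the PU.1 and ETS points lie the other way round, at 5.01% and 2.11%.

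Outside the lists, the largest called promoter differences included those of Prg3, Oosp1, Cd5l, Clec2h, Crtam, Olfr1447, Hs3st2, Theg and Prlr, higher in spleen, and of Unc5d, Rasef, Shroom2, Zfp334, Glb1l3, Aldh1a1, Maob, Morc4, Sox2 and Smim6, higher in lung. Prg3, an eosinophil granule protein gene, ranked 93.3 in fed and 93.4 in fasting spleen with no lung peak (difference 93.4). Cd5l, a secreted product of tissue macrophages, ranked 89.1 and 86.8 with no lung peak (difference 87.9). Crtam, a receptor of activated T and natural killer cells, ranked 85.6 and 87.6 with no lung peak. The mean rank of these 3 promoters in the 12 libraries of other tissues was 3.76, 13.9 and 15.2, so they mostly lacked strong peaks there too. In lung, Sox2, a factor of airway progenitors, ranked 88.5 and 89.7 with no spleen peak (difference -89.1). Aldh1a1, a retinaldehyde dehydrogenase gene, ranked 89.9 and 90.7, Unc5d, a netrin receptor gene, 94.1 and 96.2, and Maob, the monoamine oxidase B gene, 87.0 and 92.4, none with a spleen peak. Unlike the 3 spleen genes above, these were open elsewhere. Their mean ranks in the other tissues were 66.3 for Sox2, 85.6 for Aldh1a1, 72.4 for Unc5d and 77.0 for Maob. A promoter higher in lung than in spleen was in these cases one that lacked a peak in spleen. The contrast did not hold for all the genes named. Prlr, higher in spleen, had a mean rank of 62.3 in the other tissues. This was above Rasef (47.5), Smim6 (42.1) and Glb1l3 (35.1), which were higher in lung.

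The genes that collected most specific regions were Foxp1, Etv6, Plcl2, Tenm4, Lpp, St6galnac3, Fyn, Foxn3, Ncoa2 and Hdac9 in spleen and Mecom, Shroom3, Dlc1, Ank3, Nedd4l, Nav2, Pde4d, Limch1, Farp1 and Arhgap26 in lung. Foxp1, a factor of B and T cell development, received 38 spleen-specific and 31 lung-specific regions, so its count did not set the tissues apart. Plcl2, a phospholipase C-like signalling gene, received 33 and 1, Hdac9, a histone deacetylase gene, 25 and 5, Ncoa2, a nuclear receptor coactivator gene, 28 and 6, and Fyn, a kinase of T cell receptor signalling, 30 and 9. In lung, Mecom, which encodes the EVI1 zinc finger factor, received 65 lung-specific and 0 spleen-specific regions, Shroom3, a gene of epithelial apical constriction, 49 and 1, Dlc1, a GTPase-activating protein gene, 45 and 1, and Limch1 40 and 1. Other genes of the lung set were less one-sided, with 42 lung-specific and 16 spleen-specific regions at Pde4d, 42 and 19 at Nav2 and 39 and 23 at Arhgap26. Long genes and genes with distant neighbours collect more regions of any kind, and counts were not scaled by that distance.

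The strongest specific regions included 1 that stands apart from the rest. The spleen-specific region with the highest mean rank, 99.998, lay on chromosome 1 from 24613153 to 24616172 (GRCm38) in the promoter window of Gm28437. At 3020 bp it was the widest region in fed spleen, and it was overlapped by a peak in 1 other tissue. How uniquely reads map to this region was not tested. The next were a region of Ngly1 on chromosome 14 from 16302657 to 16303027 (mean rank 97.4), an intergenic region nearest to Elovl6 on chromosome 3 from 129488566 to 129489288 (97.0) and a region 53 bp from a start of Arl10 (96.1). The 5 strongest lung-specific regions, in or near Eefsec, C1ql2, Etl4, Unc5d and Trp53inp2, had mean ranks from 95.1 to 95.6, and each was overlapped by a peak in all 6 other tissues. These lung-specific regions thus lacked a peak in spleen alone of the 8 tissues, whereas the 5 of spleen were found in 0 to 3 other tissues.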

How the data were processed

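Tissue powder of a group had been pooled, nuclei isolated on iodixanol and tagged with Tn5, and the reads aligned to GRCm38 with Bowtie2 and peaks called with MACS2 by the authors, 1 list per library and with q under 0.01 stated; the versions are not given in the sources used here. The deposited lists give each peak's fold enrichment as a ratio over the local background, the -log10 p-value and the -log10 q-value, all made by the authors. From these, regions, within-list percentile ranks of the -log10 p-value (ties share a rank) and summits were taken here, with 132629 starts of GENCODE vM21, an older release than the study's. Spleen and lung libraries were pooled from several mice and are not replicates, and the limma and promoter share p-values measure only the spread between these libraries. The permutation of signs measures the spread among the 6 other tissues for 1 fixed pair of region sets. Background tags per peak were recovered from fold and p (99.9% to 100.0% of peaks whole within 0.001) and thinned to 3.20 tags for the equal-depth alternative.

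Promoter ranks were compared with limma 3.58.1 (R 4.3.3, trend and robust), with Benjamini-Hochberg adjustment over all 17155 genes, in the 4 libraries with tissue as the term. Adjusted p-values in the text are from that fit. Single values were compared with exact permutation tests. Intervals are exact binomial at 95%. Other work was done in Python 3.11.15 with pandas 2.3.3, numpy 2.4.6, scipy 1.17.1 and matplotlib 3.10.9, and the interval and limma steps were tested on simulated data. The state pairs the libraries, since both tissues of a state came from the same mice, and the fed-minus-fasting deviations of the tissues correlated by r = 0.0304 across 17155 promoters, which are not independent replicates. A fit with state as a replicate block was the alternative.

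Named genes were the 132 members of 14 lists, all found in the annotation, the 10 genes with most specific regions, the 5 strongest regions a tissue, and the 10 largest called promoter differences in each direction without overlap between libraries. The members and lists were chosen with earlier results of these data known. Alternatives were other q-values and windows, ranks by fold, equal depth, autosomes and leaving out each library. Some members of these sets are not reported here.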

Additional observations from a re-analysis of the deposited data

Results flagged for a closer look

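Of the 132 listed promoters, 16 had spleen-minus-lung differences of opposite sign in the fed and the fasting pair of libraries, and 3 are given here, those with at least 10 points in both pairs. Cd3e, a subunit of the T cell receptor complex, ranked 11.8 points lower in spleen than in lung in the fed pair (-11.8) and 58.6 points higher in the fasting pair, where fasting lung had no promoter peak. Emcn, the endothelial sialomucin gene, ranked 24.9 points higher in spleen in the fed pair and lower in the fasting pair (-51.7), where fasting spleen had no promoter peak. Cela2a, a pancreatic elastase gene, ranked 43.5 points higher in spleen in the fed pair and lower in the fasting pair (-49.3). With 1 library per tissue and state, the difference between the states was not tested.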

How the results depend on the processing

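The promoter share difference between the tissues reversed to 4.97 points with q-values under 1e-06, and was -0.275 among the 50000 strongest regions, -4.94 at equal depth, -3.66 with protein-coding starts and -3.58 to -3.13 without each library in turn, against -3.35 as reported. Spleen-specific and lung-specific regions numbered 4538 and 24334 with q under 1e-06, 2089 and 6372 among the 50000 strongest, and 19444 and 17926 at equal depth. Lung-specific regions numbered 27415 with 200000 rows a library, an alternative chosen after seeing the data. Without each library in turn the counts ranged from 35530 to 131340 in spleen and from 49059 to 74465 in lung. The highest counts left 1 state of the tissue itself, and the lowest left out a library of the other tissue. Promoters higher in spleen numbered 1943 with state as a replicate block and 842 with ranks by fold, and those higher in lung 3285 and 1686. Without each library in turn they ranged from 0 to 708 in spleen and from 0 to 3756 in lung, and the calls of each list go with them. The larger overlap of lung-specific regions with other tissues kept its direction in every alternative run, from 13.5 to 36.1 points. Lower depth in spleen and list lengths that ended 3 of the 4 sets limit which weak regions could be seen, and the cause of the changes with depth was not tested. Of the 56 list medians recomputed, 7 moved and 0 turned, and of the 54 motif differences 31 moved. The sign of the motif difference turned in an alternative for the IRF, TCF/LEF, NF-kB, NRF1 and NFY letters. Their differences as reported were small, the largest in size -0.302 points for TCF/LEF.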
